A study of Homo sapiens with 6 samples.

Results

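Genes of drug conjugation and of alcohol, aldehyde and ketone oxidation or reduction were followed in tumours of Huh7, an established human hepatocellular carcinoma line. Members were the probe sets whose gene symbol belongs to the UDP-glucuronosyltransferases (UGT), sulfotransferases (SULT), soluble glutathione S-transferases (GST), alcohol dehydrogenases (ADH), aldehyde dehydrogenases (ALDH) or aldo-keto reductases (AKR). AKR1D1, a bile acid enzyme, was not counted, and 3 antisense and 3 pseudogene symbols were left out. This gave 77 members of 23934 probe sets with a symbol, in a table of 24726. There were 18 UGT, 10 SULT, 14 GST, 7 ADH, 19 ALDH and 9 AKR genes. The cells of 3 tumours held pRcCMVi.hIR-A(GFP), a plasmid that encodes the A isoform of the insulin receptor, IR-A, together with GFP. Those of the 3 control tumours held the vector alone. Cells of both groups had been selected with G418 and by cytometry and were injected under the skin of nude mice, a host without T cells that keeps macrophages, vessels and fibroblasts. The labels do not say whether either line was a clone or which mouse bore each tumour, so the p-values rest on the spread among 6 samples that may be technical copies.

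The liver clears drugs, hormones and alcohol in steps. ADH enzymes turn alcohols into aldehydes, ALDH enzymes turn aldehydes into acids, and AKR enzymes reduce aldehydes and ketones, steroids among them. UGT, SULT and GST enzymes then attach glucuronic acid, sulfate or glutathione, which makes a compound more soluble and ready for export. Many of these genes are high in adult hepatocytes and low in dedifferentiated liver cancer cells.

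INSR, the gene of the insulin receptor, was at 8.04, 7.61 and 8.47 in control tumours 1, 2 and 3 and at 10.65, 11.31 and 11.01 in IR-A tumours 1, 2 and 3. All values are log2 signals, so a difference of 1 is 2-fold. The groups did not overlap, as the labels require, although the probe set does not tell isoform A from isoform B. Control tumour 2 was unlike the other controls. Its correlation across probe sets was 0.982 on average with the other controls and 0.987 with the IR-A tumours. The hepatocyte origin was borne out by 16 measured hepatocyte markers, none of which was below the median probe set in both groups. Their mean was 11.77 to 12.13 in control tumours, highest in control tumour 2, and 12.22 to 12.33 in IR-A tumours, and 14 of 16 had a difference above 0. Markers of mouse host cells can be read by human probes only where the sequences match. Macrophage markers had means of 4.58 to 4.86 in control and 4.80 to 4.94 in IR-A tumours, with 7 of 10 below the median probe set. The fibroblast list ran from 4.24 to 4.56 and from 4.58 to 4.67 (4 of 10 below), the endothelial list from 3.80 to 3.92 and from 3.83 to 3.88 (8 of 9 below), and the adipocyte list from 4.25 to 4.44 and from 4.55 to 4.62 (4 of 7 below). The keratinocyte list ran from 3.41 to 3.73 and from 3.53 to 3.63 (4 of 5 below) and the skeletal muscle list from 3.84 to 4.20 and from 3.79 to 4.16 (5 of 7 below). Single markers of these lists differed more than the means. TYROBP of macrophages was at 5.42, 5.96 and 4.88 in control and at 7.47, 7.25 and 6.89 in IR-A tumours (difference 1.78), and CD68 differed by 0.62. Of the fibroblast markers, LUM differed by 1.26 at dim signal, COL1A2 by 0.83 and COL1A1 by 0.40, and the adipocyte marker PLIN1 differed by 1.64. The groups did not overlap in these 6 markers, each higher in IR-A tumours. The same held for the endothelial marker PECAM1, which differed by 0.51. Other markers went the other way. FCER1G of macrophages differed by -0.60, also without overlap, and PDGFRA of fibroblasts by -0.87 with overlapping groups. Differences were above 0 in 5 of 10 macrophage, 7 of 10 fibroblast, 3 of 7 adipocyte and 3 of 9 endothelial markers, against 44% of all probe sets. The fibroblast and adipocyte list means were higher in each IR-A tumour than in any control. Those of the macrophage and endothelial lists overlapped between groups. The part of these cells in the results that follow was not tested, and in bulk tumours fewer cells of a type and less RNA per cell cannot be told apart.

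A small set of liver enzymes had much more signal in IR-A tumours. UGT2A3 was 6.86-fold higher, ADH1A 5.53-fold, ADH4 4.66-fold, ALDH8A1 3.44-fold and SULT2A1 2.52-fold, while ALDH1L2 was at 0.494 of its control level. Each family held members with differences near 0 beside these. No member passed limma's test after Benjamini-Hochberg adjustment over all probe sets (0 of 77, lowest adjusted p = 0.147), as no probe set did (0%). At an unadjusted p under 0.05 there were 15 members (19.5%), against 14.1% of all probe sets. Of these, 11 were higher and 4 lower, against 7.1% and 7.03% of all probe sets. The groups did not overlap in 18 members (23.4%), against 17.2% of all probe sets, with 11 higher and 7 lower (7.73% and 9.45%). A difference of at least 2-fold was found in 8 members (10.4%), against 1.91% of all probe sets, with 7 higher and 1 lower (1.2% and 0.712%). The median difference over the 77 members was 0.10 on the log2 scale, against -0.03 over all probe sets, with 50 members above 0 and 27 below (44% and 56% of all probe sets). It was 0.19 without control tumour 2 (-0.04 over all probe sets) and 0.18 without control tumour 3. The other left-out tumours are not given here for this median. Without the dimmest 25% and 50% of probe sets it was 0.22 and 0.24. Over all probe sets the median was 0.0018 without the dimmest 50%. The 11 members higher at an unadjusted p under 0.05 numbered 6, 21 and 7 when control tumours 1, 2 and 3 were left out in turn, and 7 without IR-A tumour 1.

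**Figure D1:**
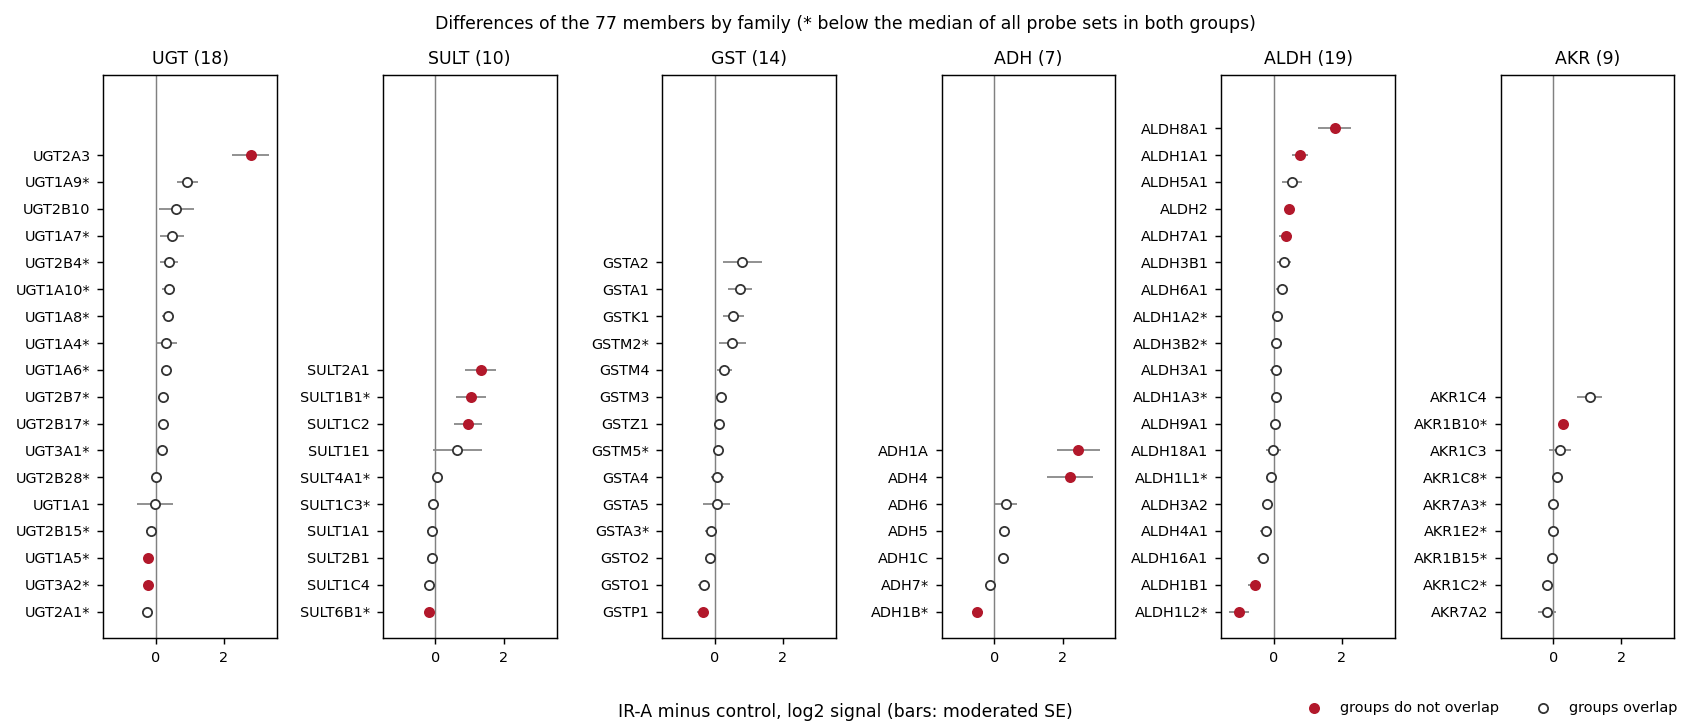
Difference in log2 signal between 3 IR-A and 3 control tumours (x axis) for the 77 members, a panel per family, with the moderated standard error as a bar; filled points mark genes whose groups do not overlap and asterisks genes below the median probe set in both groups. UGT2A3, ADH1A, ADH4 and ALDH8A1 lie far to the right of their families, and most other members lie near 0.

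Bright probe sets are called more often than dim ones, so the members were also read against probe sets of like level. The median probe set had a mean of 4.71 over the 6 arrays, and 42 members lay at or above it. Of these 42, 9 had an unadjusted p under 0.05 (21.4%), against 23.6% of all probe sets at or above the median, and the groups did not overlap in 11 (26.2%, against 24.8%). Both totals were near the background, but their directions were not split alike. At an unadjusted p under 0.05, 8 of the 42 were higher (19%, against 12.2%) and 1 was lower (2.38%, against 11.5%). Groups without overlap were 9 higher (21.4%, against 12.2%) and 2 lower (4.76%, against 12.5%). The share at least 2-fold apart was 6 of 42 (14.3%), against 3.52% of the probe sets of that range, and all 6 were higher in IR-A tumours, where 2.22% of those probe sets were.

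**Figure D2:**
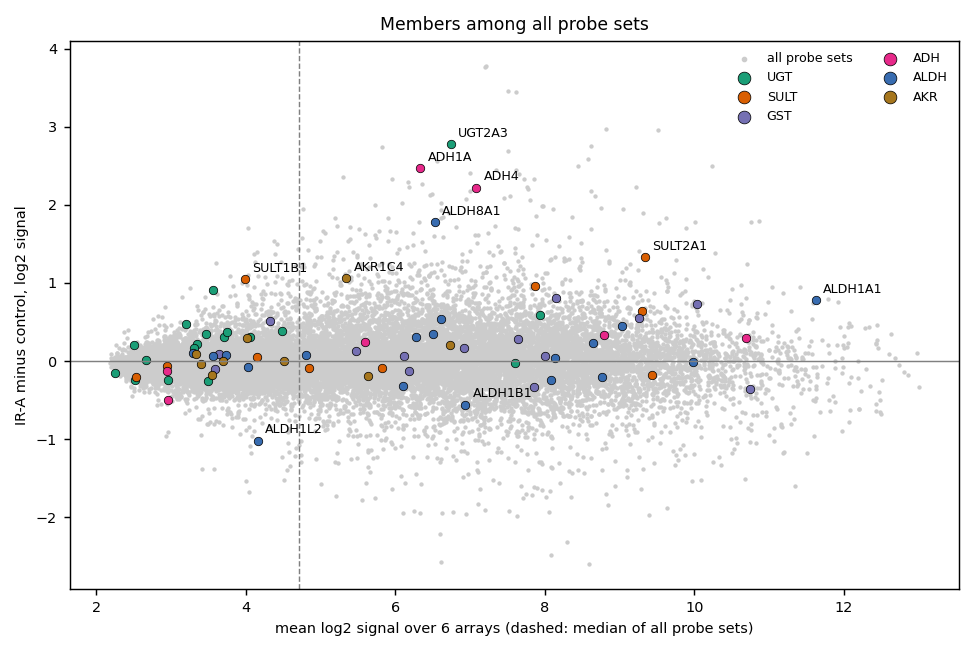
Mean log2 signal over the 6 arrays (x axis) and difference between IR-A and control tumours (y axis, log2) for all 24726 probe sets in grey and for the 77 members in colour by family. UGT2A3 (2.78), ADH1A (2.47) and ADH4 (2.22) lie at the upper edge of the grey cloud, and ALDH1L2 (-1.02) is the lowest member.

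Among the alcohol dehydrogenases, which start the breakdown of ethanol and retinol, ADH1A and ADH4 stood out. ADH1A, a class I subunit of liver, was at 4.54, 6.60 and 4.17 in control tumours 1 to 3 and at 8.16, 7.40 and 7.15 in IR-A tumours 1 to 3. Its lowest IR-A tumour was above control tumour 2, which in turn was well above the other controls. The difference was 2.47 (SE 0.64, 95% interval 0.94 to 4.0, limma adjusted p = 0.192). ADH4, which also oxidises retinol, was at 4.89, 7.43 and 5.61 in control and at 9.05, 7.89 and 7.65 in IR-A tumours. As for ADH1A, control tumour 2 was the highest control and IR-A tumour 1 the highest IR-A tumour. The lowest control was tumour 1 for ADH4 and tumour 3 for ADH1A. The gap of ADH4 to control tumour 2 was small, and it differed by 2.22 (SE 0.68, 95% interval 0.58 to 3.85, limma adjusted p = 0.240). ADH5, the formaldehyde-clearing enzyme of all tissues, was at 10.25, 10.72 and 10.64 in control and at 10.89, 10.70 and 10.92 in IR-A tumours, a difference of 0.29 (SE 0.15). ADH6 differed by 0.34 (SE 0.33) and ADH1C by 0.24 (SE 0.12), and both had overlapping groups. The value for ADH6 was 0.06 without control tumour 3 and 0.71 without control tumour 2. ADH1B, another class I subunit, went the other way at low signal: it was at 3.51, 3.03 and 3.08 in control and at 2.85, 2.61 and 2.66 in IR-A tumours, a difference of -0.50 (SE 0.15, adjusted p = 0.238). ADH7, the stomach form, was as dim and differed by -0.13.

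The 7 ADH genes form an unbroken run of coding genes on chromosome 4, in the order ADH5, ADH4, ADH6, ADH1A, ADH1B, ADH1C and ADH7 of the RefSeq annotation. ADH1A and ADH1B are therefore direct neighbours with differences of opposite sign. The 250 bases before the starts of ADH4, ADH1A and ADH1B are shown for this contrast, from RefSeq's GRCh38.p14, 5′ to 3′ on the gene's strand. Capitals mark GTTAAT, or ATTAAC on the other strand. These letters are only part of the site of HNF1, a liver transcription factor, and are called the HNF1 motif here.
ADH4 (chr4:99144298-99144547, minus strand): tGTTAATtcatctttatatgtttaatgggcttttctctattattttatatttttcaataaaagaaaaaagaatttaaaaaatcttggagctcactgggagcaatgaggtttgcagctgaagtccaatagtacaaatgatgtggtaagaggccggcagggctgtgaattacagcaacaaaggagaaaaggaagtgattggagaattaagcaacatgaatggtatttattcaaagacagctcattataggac
ADH1A (chr4:99290986-99291235, minus strand): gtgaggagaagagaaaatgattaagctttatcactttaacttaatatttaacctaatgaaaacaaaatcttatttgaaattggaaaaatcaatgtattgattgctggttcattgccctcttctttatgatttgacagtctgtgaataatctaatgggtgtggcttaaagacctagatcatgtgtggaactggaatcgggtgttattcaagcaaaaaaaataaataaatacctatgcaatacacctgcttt
ADH1B (chr4:99321402-99321651, minus strand): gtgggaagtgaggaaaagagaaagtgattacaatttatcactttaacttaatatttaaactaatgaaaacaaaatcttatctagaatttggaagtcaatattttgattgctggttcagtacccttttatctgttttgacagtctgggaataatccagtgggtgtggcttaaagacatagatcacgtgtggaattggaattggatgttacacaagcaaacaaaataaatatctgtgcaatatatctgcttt
In a global alignment the ADH1A and ADH1B windows matched at 210 of 242 aligned bases (86.8%), and those of ADH1A and ADH4 at 136 of 230 (59.1%). The HNF1 motif was found in the ADH4 window and not in the windows of ADH1A and ADH1B. It was held by 6.22% of all 27305 promoters, and 8 of the 64 members with an entry did (12.5%). These 8 lay on both sides of 0. They were ADH4, the near copies GSTA1 and GSTA2, SULT1E1 (0.64), UGT3A1 (0.17), UGT1A1 (-0.03), UGT1A5 (-0.24) and UGT2A1 (-0.25). An antioxidant response element core, TGACNNNGC, was in 8 of 64 member windows (12.5%, against 11% of all), and the AHR core GCGTG in 17 of 64 (26.6%, against 31.9%). These motifs were searched on both strands, and a match is a run of letters, not a shown binding site.

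**Figure D3:**
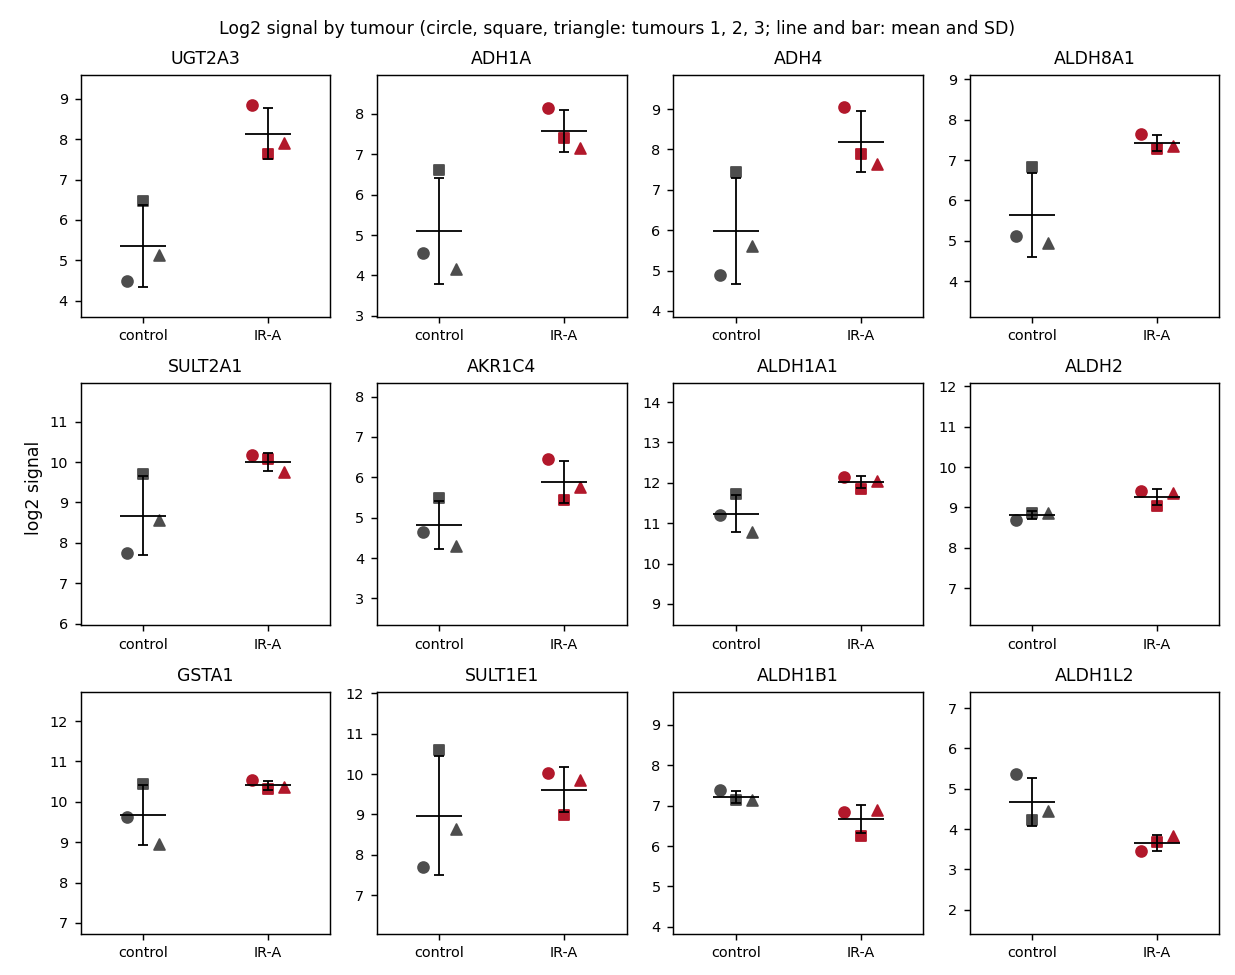
Log2 signal (y axis, the same span of 6 units in each panel) of 12 members in control and IR-A tumours, with circle, square and triangle for tumours 1, 2 and 3 and the mean and SD as a line and bar. For UGT2A3, ADH1A, ADH4, ALDH8A1 and SULT2A1 control tumour 2 (square) lies between the other controls and the IR-A tumours.

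Of the 19 aldehyde dehydrogenases, 4 were higher and 2 lower with groups that did not overlap (21.1% and 10.5%). Of all probe sets, 7.73% and 9.45% were, so the share on the lower side was near the background. ALDH8A1, a liver and kidney enzyme of tryptophan breakdown, was at 5.12, 6.83 and 4.95 in control tumours and at 7.64, 7.27 and 7.35 in IR-A tumours. The IR-A tumours lay close together above all controls, and the difference was 1.78 (SE 0.48, 95% interval 0.63 to 2.94, adjusted p = 0.205). ALDH1A1, which makes retinoic acid, was at 11.20, 11.72 and 10.79 in control and at 12.15, 11.85 and 12.05 in IR-A tumours, a difference of 0.78 (SE 0.23, adjusted p = 0.236). The gap between control tumour 2 and IR-A tumour 2 was small against the spread of the controls. ALDH2, the mitochondrial enzyme that clears acetaldehyde, was at 8.70, 8.86 and 8.87 in control and at 9.41, 9.03 and 9.35 in IR-A tumours. Here the controls agreed closely, control tumour 2 among them, and the difference was 0.45 (SE 0.13, 95% interval 0.15 to 0.76, adjusted p = 0.216).

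On the lower side, ALDH1L2, a mitochondrial enzyme of folate metabolism, was at 5.36, 4.22 and 4.44 in control and at 3.46, 3.67 and 3.84 in IR-A tumours. All IR-A tumours were below all controls, but control tumour 1 set much of the distance, and both group means were below the median probe set. The difference was -1.02 (SE 0.30, 95% interval -1.73 to -0.31, adjusted p = 0.224), and without control tumour 1 it was -0.67. ALDH1B1, a mitochondrial relative of ALDH2, was at 7.39, 7.13 and 7.14 in control and at 6.84, 6.26 and 6.89 in IR-A tumours, a difference of -0.56 (SE 0.19, adjusted p = 0.273), or -0.36 without IR-A tumour 2. Its groups did not overlap, so the closely related ALDH2 and ALDH1B1 had differences of opposite sign. ALDH7A1, of lysine breakdown, had groups that did not overlap with a difference of 0.34 (SE 0.18). ALDH5A1, of GABA breakdown, differed by 0.54 (SE 0.29), ALDH16A1 by -0.32 (SE 0.18) and ALDH18A1, which makes proline precursors, by -0.01 (SE 0.23). The other 10 ALDH genes differed by -0.24 to 0.31, and their groups overlapped.

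The aldo-keto reductases had small differences apart from AKR1C4, a liver enzyme that reduces steroids and bile acid precursors. It was at 4.65, 5.48 and 4.31 in control and at 6.46, 5.43 and 5.75 in IR-A tumours. Control tumour 2 was above IR-A tumour 2, so the groups overlapped, and the difference was 1.07 (SE 0.37, adjusted p = 0.282). Its neighbours on chromosome 10 differed little, with AKR1C3, which makes testosterone, at 0.20 (SE 0.32) and AKR1C2 at -0.17 (SE 0.17). AKR1C genes are close copies, and whether their probe sets share signal was not checked. AKR1B10, a reductase often high in liver cancer, was dim at 3.86, 3.84 and 3.88 in control and at 4.24, 4.0 and 4.24 in IR-A tumours, without overlap and with a difference of 0.30 (SE 0.10, adjusted p = 0.282). AKR7A2, an aflatoxin aldehyde reductase, differed by -0.20 (SE 0.27).

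UGT2A3, which glucuronidates bile acids, had the greatest difference of the 77 members. It was at 4.49, 6.47 and 5.12 in control and at 8.86, 7.64 and 7.92 in IR-A tumours. The groups were more than 1 unit apart at their nearest tumours, and the difference was 2.78 (SE 0.54, 95% interval 1.48 to 4.08, adjusted p = 0.147). It lies on chromosome 4 in an unbroken run with UGT2B17, UGT2B15, UGT2B10 and UGT2B7, of which UGT2B10, an enzyme for nicotine and amines, differed by 0.60 (SE 0.51). The value for UGT2B10 was 0.09 without control tumour 1 and 1.01 without control tumour 2. The other 3 differed by -0.15 to 0.22 and were dim. The 250 bases before the start of UGT2A3 hold none of the motifs searched for.
UGT2A3 (chr4:68951805-68952054, minus strand): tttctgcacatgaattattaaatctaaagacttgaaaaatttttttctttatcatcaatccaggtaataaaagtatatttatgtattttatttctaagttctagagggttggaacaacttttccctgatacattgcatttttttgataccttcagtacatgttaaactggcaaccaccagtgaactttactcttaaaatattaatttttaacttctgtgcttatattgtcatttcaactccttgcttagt
UGT1A1, the enzyme that conjugates bilirubin, was at 7.18, 8.57 and 7.10 in control and at 8.35, 6.72 and 7.69 in IR-A tumours. The groups overlapped fully, with a difference of -0.03 and a wide interval from -1.30 to 1.24, so these tumours do not show whether it differed. The UGT1A genes are variants of a single locus with their own start exons and the rest shared, so their probe sets may share signal. UGT1A9, a phenol-conjugating form, was dim at 2.84, 3.40 and 3.09 in control and at 4.60, 4.08 and 3.39 in IR-A tumours, where IR-A tumour 3 lay just below control tumour 2 (difference 0.91, SE 0.31, adjusted p = 0.275). UGT3A2 (-0.25, SE 0.09), UGT1A5 (-0.24, SE 0.11) and UGT2A1 (-0.25, SE 0.15) were lower at signals under 4, and the groups of UGT2A1 overlapped. In all, 15 of the 18 UGT genes were below the median probe set in both groups.

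Among the sulfotransferases, SULT2A1, which sulfates DHEA and bile acids, had the greatest difference. It was at 7.75, 9.71 and 8.56 in control and at 10.19, 10.07 and 9.76 in IR-A tumours. Control tumour 2 nearly reached IR-A tumour 3, and the difference was 1.33 (SE 0.46, 95% interval 0.23 to 2.43, adjusted p = 0.282). Without control tumour 1 it was 0.87, less than 2-fold, and without control tumour 2 it was 1.85. The window before its start also holds none of the motifs searched for.
SULT2A1 (chr19:47886316-47886565, minus strand): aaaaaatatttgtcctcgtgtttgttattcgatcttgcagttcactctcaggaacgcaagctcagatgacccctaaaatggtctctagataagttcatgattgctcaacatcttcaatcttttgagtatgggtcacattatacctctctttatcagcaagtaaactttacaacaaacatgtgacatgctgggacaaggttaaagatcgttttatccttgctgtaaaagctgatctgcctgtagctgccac
SULT1B1, a thyroid hormone sulfotransferase, was dim at 3.36, 3.78 and 3.24 in control and reached 5.54 in IR-A tumour 1, against 4.09 and 3.90 in the others (difference 1.05, SE 0.43, adjusted p = 0.348). Without IR-A tumour 1 the difference was 0.53. SULT1C2 and SULT1E1 were picked after their values were seen. SULT1C2 was at 6.47, 8.25 and 7.45 in control and at 8.44, 8.29 and 8.33 in IR-A tumours, and differed by 0.96 (SE 0.41). SULT1E1, which inactivates oestrogen, was at 7.70, 10.59 and 8.63 in control and at 10.02, 8.98 and 9.85 in IR-A tumours. Control tumour 2 had its highest value of all 6 tumours, and the difference of 0.64 (SE 0.71) was smaller than its error. SULT1C4, a fetal form, differed by -0.18 (SE 0.16) and SULT6B1, at signals under 3, by -0.20 (SE 0.11). The remaining 4 SULT genes differed by -0.09 to 0.05.

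None of the 14 glutathione transferases named in the table had an unadjusted p under 0.05 in limma (0 of 14, against 14.1% of all probe sets). Without control tumour 2 there were 6 (42.9%), of which 5 were higher and 1 lower (35.7% and 7.14%). In that fit 21.1% of all probe sets had such a p, 10.3% higher and 10.7% lower. Among probe sets at or above the median level 31.9% did. GSTA1, an alpha class enzyme of hepatocytes, was at 9.62, 10.45 and 8.95 in control and at 10.54, 10.32 and 10.37 in IR-A tumours. The IR-A tumours lay close together, control tumour 2 lay among them, and the difference was 0.73 (SE 0.35, adjusted p = 0.423). It was 0.37 without control tumour 3 and 1.12 without control tumour 2. GSTA2, its close copy, was at 6.48, 8.92 and 7.84 in control and at 8.61, 8.84 and 8.20 in IR-A tumours, and control tumour 2 was the highest of all 6 (difference 0.80, SE 0.57). It was picked to set beside GSTA1, whose signal its probes may share. The promoters of the 2 genes, shown because the pair had like differences, matched at 243 of 250 bases (97.2%), with the HNF1 motif at the same place, 180 to 175 bases before the start.
GSTA1 (chr6:52803817-52804066, minus strand): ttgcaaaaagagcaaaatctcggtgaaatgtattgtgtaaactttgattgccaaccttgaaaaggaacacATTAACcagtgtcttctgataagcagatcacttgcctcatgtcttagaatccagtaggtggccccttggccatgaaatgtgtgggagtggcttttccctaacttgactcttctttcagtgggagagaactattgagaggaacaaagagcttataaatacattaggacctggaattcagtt
GSTA2 (chr6:52763476-52763725, minus strand): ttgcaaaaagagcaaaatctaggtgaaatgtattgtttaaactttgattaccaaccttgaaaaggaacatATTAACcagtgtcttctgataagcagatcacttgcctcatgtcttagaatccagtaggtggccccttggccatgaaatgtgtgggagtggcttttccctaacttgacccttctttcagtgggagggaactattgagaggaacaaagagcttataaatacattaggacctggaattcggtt
GSTP1, the form typical of bile ducts and of many tumours, was at 11.00, 10.81 and 10.99 in control and at 10.78, 10.26 and 10.68 in IR-A tumours. Its groups did not overlap, by a narrow margin at control tumour 2 and IR-A tumour 1, and the difference was -0.36 (SE 0.15, adjusted p = 0.365), or -0.21 without IR-A tumour 2. GSTO1, an omega class enzyme, differed by -0.33 (SE 0.16) with overlapping groups. The other 10 GST genes differed by -0.13 to 0.55.

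The enzymes with more signal shared an order of the tumours. In all 7 members at least 2-fold higher in IR-A tumours, control tumour 2 was the highest control and IR-A tumour 1 the highest IR-A tumour. Among all 297 probe sets at least 2-fold higher, control tumour 2 was the highest control in 79.5% and IR-A tumour 1 the highest IR-A tumour in 74.4%. This order was thus common to strongly higher genes of any kind in these tumours. Over the 77 members, the mean signal was 5.40, 5.82 and 5.57 in control tumours 1 to 3 and 5.96, 5.78 and 5.85 in IR-A tumours 1 to 3. The value of control tumour 2 fell between those of IR-A tumours 2 and 3.

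Without control tumour 2, which leaves 2 controls, 4 of 77 members passed limma's test, against 1.25% of all probe sets. All 4 were higher (0.797% of all probe sets, and 0.449% lower). They were ALDH8A1 with a difference of 2.38 (adjusted p = 0.0255), ADH1A with 3.22 (adjusted p = 0.0262), UGT2A3 with 3.33 (adjusted p = 0.0395) and SULT2A1 with 1.85 (adjusted p = 0.0499). All 4 lay at or above the median level, where 296 of 12363 probe sets passed, 193 of them higher. At an unadjusted p under 0.05 there were 27 members (35.1%), 21 higher and 6 lower, against 21.1% of all probe sets (10.3% higher and 10.7% lower). Groups did not overlap in 35 members (45.5%), against 38.8% of all probe sets. Of these 35, 24 were higher (31.2%, against 16.3%) and 11 lower (14.3%, against 22.5%). Of the 42 members at or above the median level, 50% had an unadjusted p under 0.05, against 31.9% of probe sets of that level. At that p 42.9% of the 42 were higher and 7.14% lower, against 18.1% and 13.8%. Their groups did not overlap in 57.1%, against 47.1%. Members at least 2-fold apart then numbered 15, 14 of them higher, against 3.21% of all probe sets (2.09% higher and 1.11% lower). They were 5 without control tumour 1 and 5 without IR-A tumour 1. SULT1E1 moved most, from 0.64 to 1.45, and UGT1A1 changed from -0.03 to 0.45. Control tumour 2 was left out because it stood apart over all probe sets, so these values describe the 5 other tumours and are no separate support.

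**Figure D4:**
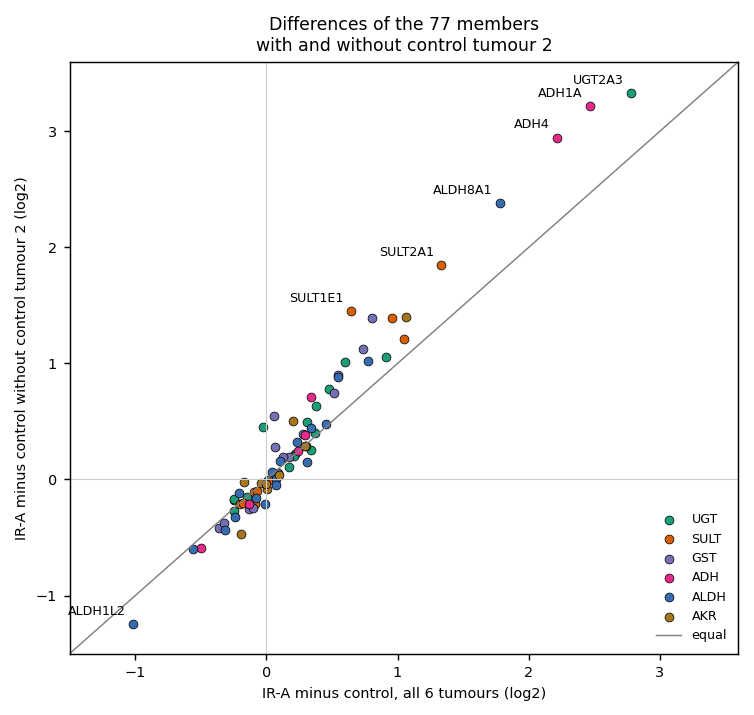
Difference in log2 signal between IR-A and control tumours for the 77 members with all 6 tumours (x axis) and without control tumour 2 (y axis), coloured by family; the line marks equal values. The 7 members at least 2-fold higher lie above the line, for example ADH1A at 2.47 and 3.22, and so does UGT1A1 at -0.03 and 0.45, while ALDH3B1 lies below it at 0.31 and 0.15.

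Genes that feed, assist or follow these enzymes were taken from 8 lists, and none passed after adjustment. All 10 measured genes of sulfate donor supply and sulfatases had a difference above 0 (median 0.33), and 4 had an unadjusted p under 0.05, all higher. Over all probe sets 44% were above 0 and 14.1% had such a p, and among those at or above the median level, where all 10 lie, 23.6% did. Among the 4 were the steroid sulfatase STS (0.65, SE 0.15) and the sulfatase partner SUMF2 (0.83, SE 0.20). In the list of UDP-glucuronate supply, 3 of 7 genes had an unadjusted p under 0.05, 1 higher and 2 lower (7.1% and 7.03% of all probe sets). Among probe sets at or above the median level, where all 7 lie, the shares were 12.2% and 11.5%. The higher gene was SLC35D1 (0.79, SE 0.26), whose groups overlapped. The lower genes were UGDH, which makes UDP-glucuronate (-0.30, SE 0.09), and UGT8 (-0.60, SE 0.12). UGT8 was counted in this list but makes galactosyl lipids and not UDP-glucuronate. In the glutathione supply list 8 of 12 genes were below 0 (median -0.13). GCLC, the rate-limiting subunit of glutathione synthesis, was at 8.19, 7.82 and 8.0 in control and at 7.53, 7.68 and 7.60 in IR-A tumours (difference -0.40, SE 0.12), and GGT7 differed by -0.43 (SE 0.12). The groups of GCLC did not overlap.

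Of 22 other reductases and dehydrogenases, 15 were above 0 (median 0.18), and 4 had an unadjusted p under 0.05, all higher. This count is near the 14.1% of all probe sets and below the 23.6% of those at or above the median. RDH10, a retinol dehydrogenase, differed by 0.80 (SE 0.20) and AKR1D1, the bile acid reductase that was not a member, by 2.76 (SE 0.76). Other conjugating enzymes were 9 of 12 above 0 (median 0.11), with NAT2, a dim acetyltransferase, at 0.36 (SE 0.12) and the histamine methyltransferase HNMT at -0.41 (SE 0.14). Other glutathione transferases were 3 of 8 above 0 (median -0.08), with LTC4S, the leukotriene C4 synthase, at -0.26 (SE 0.13) and CLIC1, a channel protein with the same fold, at -0.41 (SE 0.14). Transporters of drugs and conjugates differed in both directions: the uptake carrier SLCO2B1 by 0.97 (SE 0.27) and the efflux pump ABCG2 by -1.29 (SE 0.34), with 5 of 9 genes above 0. The greatest difference was 2.30 (SE 0.80) for the uptake carrier SLCO1B1, whose groups overlapped. In the list 2 genes were higher and 1 lower at an unadjusted p under 0.05. Among probe sets at or above the median, where all 9 lie, 12.2% were higher and 11.5% lower. Of 20 regulators, 12 were above 0 (median 0.11), 4 had an unadjusted p under 0.05 on the higher side and 1 on the lower. These 5 of 20 are near the 23.6% of probe sets at or above the median. The fatty acid receptor PPARA differed by 1.19 (SE 0.30) and the corepressor NR0B2 by 0.70 (SE 0.22).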

How the data were processed

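Gene expression was measured with whole-transcript Affymetrix arrays, 1 per tumour, from 500 ng of Trizol-extracted total RNA, per the labels' protocols. The authors deposited a log2 signal for each probe set. The submitters' processing notes list RMA and Partek but give neither version nor role, and the log2 scale was read from the values. The genome build is not given in the sources used here. RMA compresses differences of dim probe sets. GEO's annotation named 23934 probe sets, and 792 unnamed ones entered only counts over all probe sets. Unnamed probe sets can hold further genes of these families, so the 77 members are the named ones and not whole families. RefSeq tables (GRCh38.p14) gave neighbours and promoters, which matched 64 of 77 members. No pair of arrays shared over 4.15% of its values.

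Groups were compared with limma 3.58.1 in R 4.3.3 (lmFit, eBayes, no filter), adjusted over all probe sets at a threshold of 0.05, after the script was tested on simulated data. SE and 95% intervals are moderated. The number of arrays limits the precision. Members and lists were chosen with earlier results of these data known. Genes were named by rule: up to 10 members per direction of smallest p, 2 per family of highest mean and 2 of smallest p, 4 per direction of greatest difference, and 2 per list, which gave 30 members. ADH1C, ADH7, ALDH7A1, ALDH5A1, ALDH3B1, AKR1C2, SLC35D1 and SLCO1B1 were named outside this rule. So were genes given as cell markers, for a motif or for their position. A gene is dim if both group means are under the median probe set. Alternatives were quantile normalization, centring, filters on dim probe sets, other moderation, array weights, a replicate block and leaving out each tumour. Protein identity was planned but not analysed here.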

Additional observations from a re-analysis of the deposited data

How the results depend on the processing

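The 0 probe sets called became 14 and 20 without the dimmest 25% and 50% of probe sets and 11 with array weights, and no member was called in these settings. Over left-out tumours, 0 to 308 probe sets and 0 to 4 members were called, with calls only without control tumour 2. Members at an unadjusted p under 0.05 (15) ran from 10 to 27 over left-out tumours, those higher (11) from 6 to 21, those at least 2-fold apart (8) from 5 to 15, and those without overlap (18) from 22 to 35, where fewer tumours make overlap rarer. Members lower at an unadjusted p under 0.05 (4) were 2 and 1 without the dimmest 25% and 50%, where groups did not overlap in 11 members at 50%, since dim members drop out. For the same reason, the median of the SULT family (-0.0077) was 0.35 and 0.28 in these filters. Without the dimmest 50% the medians were 0.60 for UGT (0.26 as reported), 0.15 for ALDH (0.07) and 0.20 for AKR (0.0023). The ALDH median ran from 0.025 to 0.18 over left-out tumours.

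Of the 30 named members, 3 changed direction in some setting, and the cause was not tested. ALDH18A1 was 0.038 with quantile normalization, 0.0013 with centring, and -0.21 to 0.23 over left-out tumours. UGT1A1 was 0.21 with array weights and -0.41 to 0.45 over left-out tumours, the highest without control tumour 2. AKR1C3 was -0.071 to 0.50 over left-out tumours, the lowest without control tumour 1. With the replicate number as a block, 0 probe sets were called and 15 members had an unadjusted p under 0.05, 10 higher and 5 lower. Same-numbered tumours share only a number: their deviations correlated at -0.29, -0.36 and 0.02, and not every tumour correlated best with its own number. No detection call comes with the values, so dim members carry the least certain differences.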

Other observations

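Neighbouring members often differed in size of difference. In the GSTA cluster on chromosome 6, GSTA2 (0.80) and GSTA1 (0.73) lie beside GSTA5 (0.06), GSTA3 (-0.10) and GSTA4 (0.07). In the SULT1C cluster on chromosome 2, SULT1C2 (0.96) lies between SULT1C3 (-0.07) and SULT1C4 (-0.18). SULT1B1 (1.05) and SULT1E1 (0.64) are direct neighbours on chromosome 4. Of the 7 UGT1A genes that form a run on chromosome 2, 6 had differences from 0.30 to 0.91 and UGT1A5 had -0.24, all at dim signal, and none passed the test. On chromosome 5, UGT3A1 (0.17) and UGT3A2 (-0.25) had opposite signs, both dim. These genes were picked for their position after the values were seen, and probe sets of close copies may share signal.

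GSTK1 and GSTA5 were picked after their values were seen, for the distance between control tumour 2 and the other controls. GSTK1, a mitochondrial and peroxisomal transferase, was at 8.46, 9.69 and 8.80 in control and at 9.83, 9.28 and 9.47 in IR-A tumours. GSTA5 was at 5.45, 7.06 and 5.76 in control and at 6.27, 6.04 and 6.14 in IR-A tumours, so that control tumour 2 was above all IR-A tumours and the other controls below them. Without control tumour 2 the difference of GSTA5 was 0.54 (limma adjusted p = 0.114), against 0.06 with all tumours.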
